A study of Mus musculus with 6 samples.

Results

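The genes described here are the protein-coding mouse genes whose symbol begins with *Kcn*, the root used for potassium channel subunits. There are 94 such genes in the GENCODE M21 annotation. All 94 were found by Ensembl identifier among the 54232 genes of the count tables, and 49 had enough counts to be compared between groups, of 14133 genes compared in all. Heart ventricle RNA had been sequenced from 6 wild-type (WT) C57BL/6J mice fed a western diet (WD), to ask how transcripts of the heart respond to butyrate. After 15 weeks on WD, 3 mice were given Tributyrin by needle feeding at 5 g/kg body weight for 3 weeks, on alternating pairs of days (WD + Tributyrin). The other 3 mice were given vehicle, which the sample labels name PBS (WD + Vehicle). Tributyrin is a glycerol ester that releases butyrate, a short-chain fatty acid that gut bacteria make from fibre. No group on normal chow is among these libraries, so both groups share the diet, and neither the labels nor the methods give the age of these 6 mice. Their sex is also not labelled, and the Y-linked *Ddx3y* lay between 68.3 and 85.5 CPM (counts per 1000000, after TMM scaling of the library sizes) in all 6, with *Xist* at 6 counts or fewer. A total of 20369746 to 32734485 counts per library fell on genes.

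Potassium channels let potassium ions leave the heart muscle cell, which ends the action potential and holds the resting membrane at a negative voltage. Each channel is built from pore subunits, and all pores carry a short stretch, the selectivity filter, that passes potassium and holds back sodium. Voltage-gated (Kv) subunits shape repolarization, inward rectifiers (Kir) set the resting potential, two-pore-domain (K2P) subunits carry background current, and accessory subunits change the gating or the transport of the pores to the membrane. The mouse ventricle repolarizes fast, mainly through the transient outward current and the slowly inactivating Kv currents, whereas larger mammals rely more on the rapid and slow delayed rectifiers.

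The part of each gene that defines a channel is its selectivity filter, so it is shown first for the genes that the results below turn on. In the coding sequences of the annotation (GENCODE M21, GRCm38, the mm10 assembly), the filter was searched as a threonine or serine, any residue, a glycine, a tyrosine or phenylalanine, and a glycine. Of the 94 genes, 66 held 1 such stretch, 11 held 2, and 17 held none. The 17 without it were the accessory subunits, that is all of the *Kcne*, *Kcnip*, *Kcnab* and *Kcnmb* genes and *Kcnrg*. The 11 with 2 were all K2P genes, whose subunits carry a pair of pore loops. The other 3 of the 14 K2P genes, *Kcnk1*, *Kcnk6* and *Kcnk7*, had 1 match plus a form with leucine in the place of the tyrosine or phenylalanine. A match describes the letters only. The 30 coding bases around each filter are given 5′ to 3′ on the coding strand, with the 5 filter codons in capitals. First come the most abundant transcript, *Kcnk3* (exons 1 and 2 joined, and exon 2 at chr5:30622190-30622219, plus strand), and *Kcnk1* (exons 1 and 2 joined, and the leucine form in exon 2 at chr8:126025317-126025346, plus strand), the K2P gene with the largest difference between the groups.
Kcnk3 filter 1: accgtcatcaccACCATCGGCTATGGTcat
Kcnk3 filter 2: atcaccctcaccACCATCGGCTTCGGCgac
Kcnk1 filter 1: accgtgctctccACCACAGGCTATGGCcac
Kcnk1 leucine form: atctccctgagcACCATCGGCCTGGGGgac
*Kcnk1* and *Kcnk3* differed at 7 of the 30 bases of the first filter, and 3 of these were in capitals.

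The inward rectifiers come in pairs of closely related subunits whose transcripts are compared below. Shown are *Kcnj2* (exon 2, chr11:111072195-111072224, plus strand), *Kcnj11* (exon 1, chr7:46099493-46099522, minus strand) and *Kcnj8* (exon 3, chr6:142566445-142566474, minus strand), and *Kcnj3* (exon 2, chr2:55437615-55437644, plus strand) and *Kcnj5* (exon 3, chr9:32322556-32322585, minus strand).
Kcnj2: gagacccagacaACCATTGGCTATGGTttc
Kcnj11: gaggtccaggtgACCATTGGTTTCGGCggg
Kcnj8: gaggttcaagtgACCATTGGGTTTGGAggg
Kcnj3: gagaccgaggccACCATCGGCTATGGCtac
Kcnj5: gagacagaaacaACCATTGGGTATGGCttc
Of the 30 bases, 5 differed between *Kcnj11* and *Kcnj8* and 7 between *Kcnj3* and *Kcnj5*. The Kv subunits of the transient outward current, *Kcnd2* and *Kcnd3*, whose filters span the junction of exons 1 and 2, differed at 3 bases.
Kcnd2: gtcaccatgacaACACTGGGGTATGGCgac
Kcnd3: gtcaccatgactACACTGGGATATGGAgac
Pairs this close in the pore are separate genes elsewhere in their transcripts, and reads were counted per gene.

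To compare levels between genes, counts were divided by the exonic length of each gene and scaled to TPM (transcripts in 1000000, over all genes). On this scale of level per length, 3 transcripts made up 51.3% of all *Kcn* transcripts and 10 made up 84.9%. *Kcnk3*, which encodes the background K2P channel TASK-1, was highest at 218 ± 12.4 TPM (SD over all 6 mice), or 22.2% of the *Kcn* total. *Kcng2*, a silent Kv subunit that forms channels only with other Kv subunits, followed at 154 ± 11.3 TPM. *Kcnj11*, the Kir6.2 pore of the ATP-sensitive channel, stood at 133 ± 7.46 TPM. *Kcnk3* did not overlap with *Kcng2* in any mouse, whereas *Kcng2* and *Kcnj11* overlapped in their ranges.

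The fourth was *Kcnip2*, the accessory subunit KChIP2 of the transient outward current, at 83.1 ± 12.2 TPM. Next came *Kcnj5*, a subunit of the acetylcholine-activated channel, at 61 ± 8.97, and *Kcnh2*, the ERG pore of the rapid delayed rectifier, at 58.8 ± 4.2 TPM, and each of these overlapped with the one before it. A gap without overlap then led down to *Kcnj3* (36.4 ± 2.43), *Kcnj8* (31.8 ± 1.87), *Kcnj12* (30.4 ± 1.48), *Kcnq1* (28.5 ± 2.05) and *Kcna5* (27.3 ± 3.38), each of which overlapped with its neighbour. Below the next gap, among others, lay *Kcnj2* (17.9 ± 2.05) and *Kcnd2* (14 ± 2.21). With the longest transcript as the length in place of all exons, the first 4 kept their order, and *Kcnk3* came to 194.

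**Figure D1:**
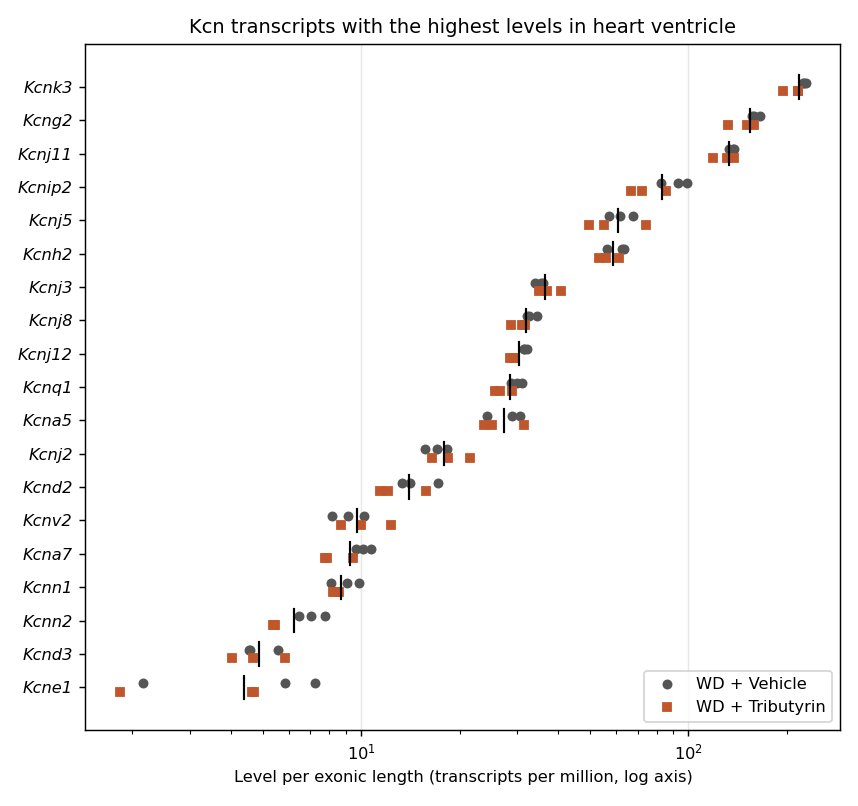
Level per exonic length, in TPM on a log axis, of 19 of the 20 *Kcn* genes with the highest mean, with 1 point per mouse (circles, 3 WD + Vehicle; squares, 3 WD + Tributyrin) and a black bar for the mean of all 6. *Kcnk3*, *Kcng2* and *Kcnj11* lie above 100 in every mouse and *Kcne1* spreads the most, and since this scale is not TMM-scaled the groups are compared on CPM instead.

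At the other end, 12 of the 94 genes had no count in any library and 33 had counts but too few to be compared, with at most 21 in a library. A count of 0 here means not detected at this depth. The highest of these were *Kcnh1*, with 6, 15 and 21 counts with vehicle and 1, 1 and 9 with Tributyrin, and *Kcnma1*, the BK channel pore, with 9, 16 and 5 against 2, 12 and 9. *Kcne2* had a summed count of 2 over the 6 libraries. The lowest summed count among the 49 genes compared was 55, against a highest of 53 among those left out.

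Summed over all 94 genes, *Kcn* transcripts took 0.161% to 0.18% of the counts in each library. In CPM, the scale used from here on, the sum was 1799, 1667 and 1678 with vehicle and 1804, 1674 and 1701 with Tributyrin. The sums overlapped between the groups. The K2P genes summed to between 373 and 410 CPM with vehicle and between 379 and 401 with Tributyrin, and the Kir genes to between 501 and 561 and between 511 and 613.

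Comparing WD + Tributyrin with WD + Vehicle, edgeR's quasi-likelihood test put 0 of the *Kcn* genes past an FDR of 10%, and the smallest adjusted p among them was 0.999. The same was true of all genes tested, of which 0 (0%) passed, and 11 in DESeq2. At an unadjusted p under 0.05, 6 of the 49 *Kcn* genes (12.2%) passed, beside 600 of the 14133 genes tested (4.25%). Of these 6, 4 were higher with Tributyrin (*Kcnk1*, *Kcnj2*, *Kcnj3* and *Kcnv2*), where 1.97% of all genes were, and 2 were lower (*Kcnn2* and *Kcnc1*), where 2.28% were. DESeq2, which tested 82 *Kcn* genes, put 0 of them past 10% and 7 (8.54%) at an unadjusted p under 0.05, beside 1.8% of the 25581 genes it tested. Without vehicle mouse 2 the count was 2 of 50 *Kcn* genes (4%), *Kcnk1* and *Kcnn2*, beside 2.82% of all genes. It was 3 of 53 (5.66%) without vehicle mouse 3, beside 2.68%, and 3 of 53 without Tributyrin mouse 1, beside 3.74%.

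The groups did not overlap in 3 of the 49 genes (6.12%), beside 8.94% of all genes tested. *Kcnk1* and *Kcnj2* were the 2 above in every Tributyrin mouse, where 4.34% of all genes were, and *Kcnn2* the 1 below, where 4.61% were. Of the 49, 24 were higher and 25 lower with Tributyrin, and their median log2 fold change was −0.02 beside −0.0013 over all genes tested. With library size alone as the scaling, 12 were higher and 37 lower, and both medians moved, to −0.09 and −0.07. Of the genes named below, 9 *Kcn* genes with fold changes near 0 turned from higher to lower with this scaling.

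**Figure D2:**
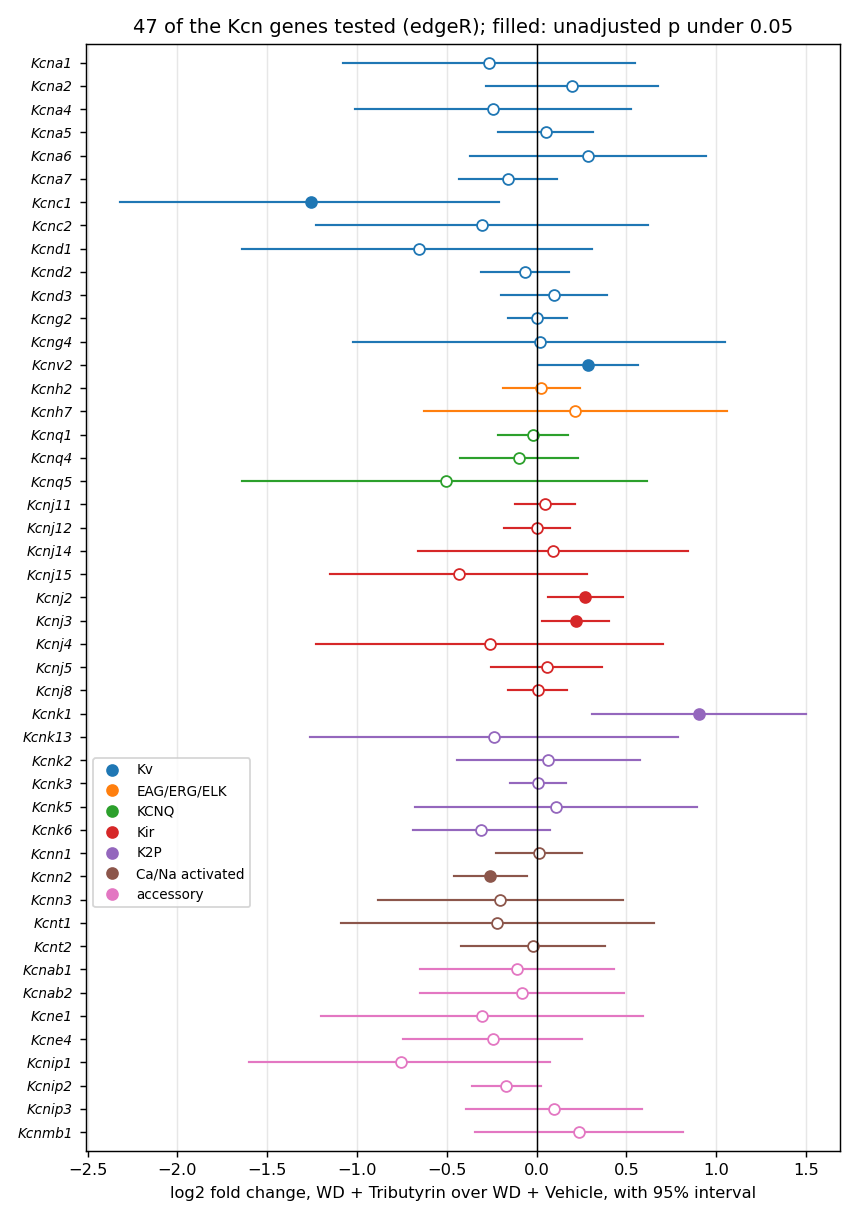
Log2 fold change of WD + Tributyrin over WD + Vehicle for 47 of the 49 *Kcn* genes tested (points) with 95% intervals (lines) from edgeR, coloured by family, with filled points where the unadjusted p was under 0.05. The 6 filled points are *Kcnc1*, *Kcnv2*, *Kcnj2*, *Kcnj3*, *Kcnk1* and *Kcnn2*. Long lines belong to genes with few counts and to *Kcne1*, which had more counts but a wide spread between mice.

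How much could be seen depended largely on the level of each gene. The 18 *Kcn* genes with a vehicle mean of at least 10 CPM had standard errors of 0.0697 to 0.139 on the log2 scale, and the 19 under 2 CPM had 0.244 to 0.507. For 23 of the 49 genes the 95% interval lay within a change of 1.5 times in either direction. For 15 genes it reached past a change of 2 times, among them *Kcne1*, with 75 to 260 counts per library and a standard error of 0.404.

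Among the K2P genes, *Kcnk1*, which encodes TWIK-1, a weak background channel, had the largest difference above 0. Its levels were 1.18, 0.765 and 0.946 CPM with vehicle and 1.64, 1.64 and 2.13 CPM with Tributyrin. Every Tributyrin mouse lay above every vehicle mouse. The mean was 0.965 ± 0.21 with vehicle and 1.8 ± 0.285 with Tributyrin (SD, n = 3). This was 87.1% higher, a log2 fold change of 0.90 with a standard error of 0.269 and a 95% interval of 0.31 to 1.5 (edgeR, unadjusted p = 0.0068, adjusted p = 0.999). It rests on 20 to 49 counts per library, so counting error is a large part of its spread. The unadjusted p was under 0.05 in all 14 alternatives that could test it, with log2 fold changes of 0.74 to 1.09.

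*Kcnk3*, the most abundant *Kcn* transcript, differed by less than the spread between mice. It was at 401, 367 and 362 CPM with vehicle and 392, 368 and 377 CPM with Tributyrin, and its 95% interval ran from −0.15 to 0.16 on the log2 scale. *Kcnk6* (TWIK-2), a close relative of *Kcnk1*, was at 4.3, 4.95 and 6.05 CPM with vehicle and 3.88, 4.7 and 3.7 with Tributyrin, and its groups overlapped (log2 fold change −0.31, edgeR, unadjusted p = 0.102). *Kcnk2*, the stretch-sensitive TREK-1, was at 1.93, 3.36 and 2.17 CPM and 2.67, 2.68 and 2.57 CPM (log2 fold change 0.07). Of the 14 K2P genes, 6 could be tested, 4 were higher and 2 lower, and 5 had no count in any library.

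The inward rectifier current IK1, which holds the resting potential of the ventricular cell, is carried by Kir2 subunits. *Kcnj2* (Kir2.1) was at 37.5, 37.6 and 40.6 CPM with vehicle and 53, 42.7 and 43.7 CPM with Tributyrin. The groups did not overlap on this TMM-scaled measure. Tributyrin mouse 1 stood well above the other Tributyrin mice, and vehicle mouse 3 came close to Tributyrin mouse 2. With library size alone as the scaling the groups crossed, since vehicle mouse 3 lay above Tributyrin mouse 3. In TPM, Tributyrin mouse 3 (16.5) lay within the vehicle range (15.7 to 18.3). *Kcnj2* was 20.6% higher with Tributyrin, with a log2 fold change of 0.27 and a 95% interval of 0.06 to 0.48 (edgeR, unadjusted p = 0.0163, adjusted p = 0.999). The unadjusted p was under 0.05 in 10 of 15 alternatives. Without Tributyrin mouse 1 the log2 fold change was 0.17, with an unadjusted p of 0.0815 in edgeR. With library size alone it was 0.197, with an unadjusted p of 0.078 in edgeR.

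*Kcnj12* (Kir2.2), its partner in the same current, did not share that difference in level. It was at 37.9, 35.2 and 36 CPM with vehicle and 36.4, 33.5 and 39.5 CPM with Tributyrin, with overlapping groups and a log2 fold change of 0.0023. Per exonic length, *Kcnj12* stood to *Kcnj2* as 2, 1.85 and 1.76 in the vehicle mice and as 1.36, 1.55 and 1.79 in the Tributyrin mice. The mean ratio was 1.87 ± 0.124 with vehicle and 1.57 ± 0.216 with Tributyrin (SD, n = 3). Tributyrin mouse 3 lay within the vehicle range, and the two-sided exact permutation test gave p = 0.2 (adjusted p = 0.6 over 6 ratios). With 3 mice against 3 this test cannot go below 0.1. The other Kir2 genes were low, *Kcnj14* with means of 1.36 and 1.5 CPM and *Kcnj4* with 0.462 and 0.384 CPM, and their groups overlapped.

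The ATP-sensitive channel opens when the ATP of the cell falls, and joins a Kir6 pore to a sulfonylurea receptor. *Kcnj11* was at 224, 206 and 198 CPM with vehicle and 230, 205 and 213 CPM with Tributyrin (log2 fold change 0.05, interval −0.12 to 0.22). *Kcnj8* (Kir6.1), the pore that smooth muscle and pericytes use, was at 36.1, 33.8 and 35.7 CPM and 36.6, 33.7 and 35.7 CPM (log2 fold change 0.01, interval −0.16 to 0.17). Neither pore was separated between the groups, and the highest mouse was 1.09 times the lowest for *Kcnj8*, the smallest such ratio of the 49 genes tested. The receptor *Abcc9* (SUR2) was at 414, 420 and 446 CPM against 431, 494 and 374, and *Abcc8* (SUR1) at 38.2, 36.9 and 38.6 CPM against 33.5, 37.9 and 35.1. The ratio of *Kcnj8* to *Kcnj11* per length was 0.243 ± 0.0147 with vehicle and 0.236 ± 0.00649 with Tributyrin, and that of *Abcc8* to *Abcc9* 0.0919 ± 0.00322 and 0.0856 ± 0.00998 (SD, n = 3), and both overlapped.

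The acetylcholine-activated channel, which answers the vagus nerve through G proteins and is known mainly from atrium and sinus node, is built of *Kcnj3* (Kir3.1) and *Kcnj5* (Kir3.4). *Kcnj3* was at 82.6, 75.5 and 72 CPM with vehicle and 96.6, 82.1 and 88.6 CPM with Tributyrin. The groups overlapped by a narrow margin, since vehicle mouse 1 lay above Tributyrin mouse 2. Its mean was 16.2% higher with Tributyrin (log2 fold change 0.22, edgeR, unadjusted p = 0.0276, adjusted p = 0.999). The unadjusted p was under 0.05 in 10 of 15 alternatives, and not with library size alone or without vehicle mouse 2, vehicle mouse 3 or Tributyrin mouse 1 (0.0781 to 0.116 in edgeR), nor without both vehicle mice 1 and 2. *Kcnj5* was at 140, 109 and 118 CPM against 158, 110 and 113 CPM, and overlapped (log2 fold change 0.06). The ratio of *Kcnj5* to *Kcnj3* per length was 1.77 ± 0.143 with vehicle and 1.58 ± 0.21 with Tributyrin (SD, n = 3; two-sided exact permutation p = 0.2, adjusted p = 0.6). Of the other 2 subunits, *Kcnj6* had no count in any library and *Kcnj9* had 3 in all. *Kcnj3* shares 1621 exonic bases with a gene on the opposite strand, Gm26794, which had 22 to 75 counts.

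Because these subunits are rich in atrium, atrial transcripts were compared across the same libraries, which the labels describe as ventricle. Ventricular cardiomyocyte markers were abundant in all 6, with *Myl2* at 5750 to 6790 CPM. Of the 7 ventricular markers tested, 5 were higher with Tributyrin and 2 lower (*Myh6* and *Actn2*, log2 fold changes −0.08 and −0.14). At an unadjusted p under 0.05 in edgeR, 2 were higher, where 1.97% of all genes tested were, and 0 were lower. These were *Tnnt2* and *Tnni3*, with log2 fold changes of 0.23 and 0.21. Of 7 atrial markers 6 were tested. At an unadjusted p under 0.05, 4 were lower with Tributyrin (*Sln*, *Myl4*, *Myl7* and *Mybphl*), where 2.28% of all genes tested were. Each of these 4 had its highest values in vehicle mice 1 and 2. Of the other tested markers, *Nppa* was at 21, 18.4 and 39.8 CPM with vehicle, highest in mouse 3, and 11.2, 15.9 and 27.7 CPM with Tributyrin, and *Stard10* had a log2 fold change of −0.02. *Myl4* was at 75 and 85.3 CPM in vehicle mice 1 and 2 and at 9.36 in the third, against 10.1, 27 and 9.52 CPM with Tributyrin. The summed atrial list ran from 76.9 to 216 CPM with vehicle and from 57 to 94.4 with Tributyrin. *Bmp10*, the marker too low to be tested, had 1 count in vehicle mouse 1, 1 in vehicle mouse 2 and 0 in the other libraries. Within the vehicle group, *Kcnj3* was at 82.6 and 75.5 CPM in mice 1 and 2 and at 72 CPM in mouse 3. Whether atrial RNA bears on the levels of *Kcnj3* was not tested. Without vehicle mice 1 and 2, the log2 fold change was 0.31 for *Kcnj3* and 0.19 for *Kcnj2*. Their unadjusted p in edgeR was then 0.0673 and 0.268. For *Kcnk1*, *Kcnn2* and *Kcnv2* it was 0.049, 0.0439 and 0.0197, for *Kcnc1* (log2 fold change −0.71) 0.318, and for *Lrrc38*, described below (log2 fold change 0.78), 0.064. In that comparison the single vehicle mouse is assumed to vary like the Tributyrin mice. In bulk RNA, fewer cells of a type and less RNA per cell cannot be told apart.

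**Figure D3:**
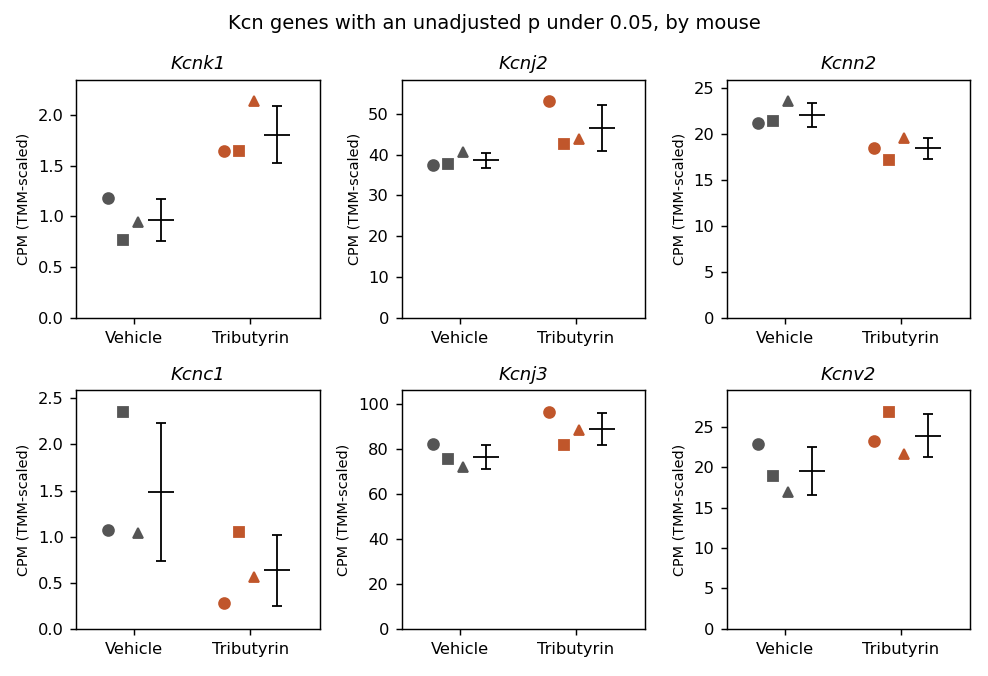
CPM (TMM-scaled, axis from 0) of the 6 *Kcn* genes with an unadjusted p under 0.05, by mouse (circle, square and triangle are mice 1, 2 and 3 of each group) with the mean and SD in black. The groups are apart in *Kcnk1*, *Kcnj2* and *Kcnn2* and overlap in *Kcnc1*, *Kcnj3* and *Kcnv2*.

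Of the small-conductance calcium-activated (SK) channels, which open with the calcium of each beat, *Kcnn2* (SK2) was the gene that was lower in every Tributyrin mouse. It was at 21.2, 21.4 and 23.5 CPM with vehicle and 18.5, 17.2 and 19.5 CPM with Tributyrin. The lowest vehicle mouse and the highest Tributyrin mouse were close but did not cross. The mean was 22 ± 1.28 with vehicle and 18.4 ± 1.14 with Tributyrin (SD, n = 3), 16.4% lower, with a log2 fold change of −0.26 and an interval of −0.46 to −0.06 (edgeR, unadjusted p = 0.017, adjusted p = 0.999). The unadjusted p was under 0.05 in 13 of 15 alternatives. *Kcnn1* (SK1) was level at 18.3, 18.4 and 15.1 CPM against 17.7, 16.1 and 18.6 CPM. *Kcnn3* (SK3) was low, with means of 2.3 and 2.02 CPM. The sodium-activated *Kcnt2* was at means of 2.9 and 2.88 CPM.

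Large-conductance (BK) channels need their pore gene *Kcnma1*, which was too low to be tested. Its smooth muscle subunit *Kcnmb1* was at 1.42, 1.62 and 2.03 CPM with vehicle and 1.42, 2.19 and 2.35 CPM with Tributyrin, with overlap (edgeR, unadjusted p = 0.384). Of 8 markers of smooth muscle and pericytes, 2 were higher with Tributyrin at an unadjusted p under 0.05 (*Myh11* and *Cnn1*), where 1.97% of all genes tested were. In all 5 were higher and 3 lower (*Pdgfrb*, *Cspg4* and *Notch3*, with log2 fold changes of −0.19, −0.12 and −0.10), and the summed list ran from 767 to 812 CPM and from 775 to 907 CPM. *Lrrc38*, a member of the family of BK gamma subunits, had the lowest p among the partner genes examined. It had 8, 29 and 24 counts with vehicle and 61, 54 and 41 with Tributyrin, or means of 0.768 ± 0.416 and 1.95 ± 0.201 CPM (SD, n = 3), and the groups did not overlap. Its log2 fold change was 1.35 with a standard error of 0.366 (edgeR, unadjusted p = 0.00386, adjusted p = 0.999). The BK pore itself had between 2 and 16 counts in these libraries.

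The transient outward current, which starts repolarization, is linked to the pores *Kcnd2* (Kv4.2) and *Kcnd3* (Kv4.3) and to the accessory subunit *Kcnip2*. *Kcnd2* was at 30.1, 36.1 and 29.6 CPM with vehicle and 28.2, 34.9 and 28.6 CPM with Tributyrin, and *Kcnd3* at 23.5, 17.7 and 17.8 CPM against 20.2, 23.9 and 18.9 CPM. Both overlapped. *Kcnip2* was at 126, 140 and 132 CPM with vehicle and 105, 127 and 122 CPM with Tributyrin, 11% lower on the fitted scale, with a log2 fold change of −0.17 and an interval of −0.36 to 0.02 (edgeR, unadjusted p = 0.0769). Tributyrin mouse 2 lay within the vehicle range, just above vehicle mouse 1, and the other two lay below it. Per length, *Kcnip2* stood at 6.18 ± 0.421 transcripts for each of *Kcnd2* with vehicle and at 5.74 ± 0.496 with Tributyrin, and *Kcnd3* at 0.336 ± 0.0783 and 0.369 ± 0.0156 (SD, n = 3). The exact permutation p was 0.3 and 0.5, and 0.6 for both after adjustment.

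*Kcnip1* and *Kcnd1*, low members of the same families, had wide intervals. *Kcnip1* had means of 0.77 and 0.466 CPM (log2 fold change −0.76, interval −1.6 to 0.08), and *Kcnd1* 0.568 and 0.351 CPM (−0.66, interval −1.64 to 0.31). *Kcna4* (Kv1.4), the pore of the slow transient outward current, had means of 1.69 and 1.41 CPM, and *Kcnip3* 2.75 and 2.98 CPM. Of the 7 tested genes of this current, 2 were higher and 5 lower, none at an unadjusted p under 0.05 and with a median log2 fold change of −0.17. The partners *Dpp6* and *Dpp10*, which modify Kv4 channels in neurons, had at most 6 counts and 1 count in a library and were not tested.

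**Figure D4:**
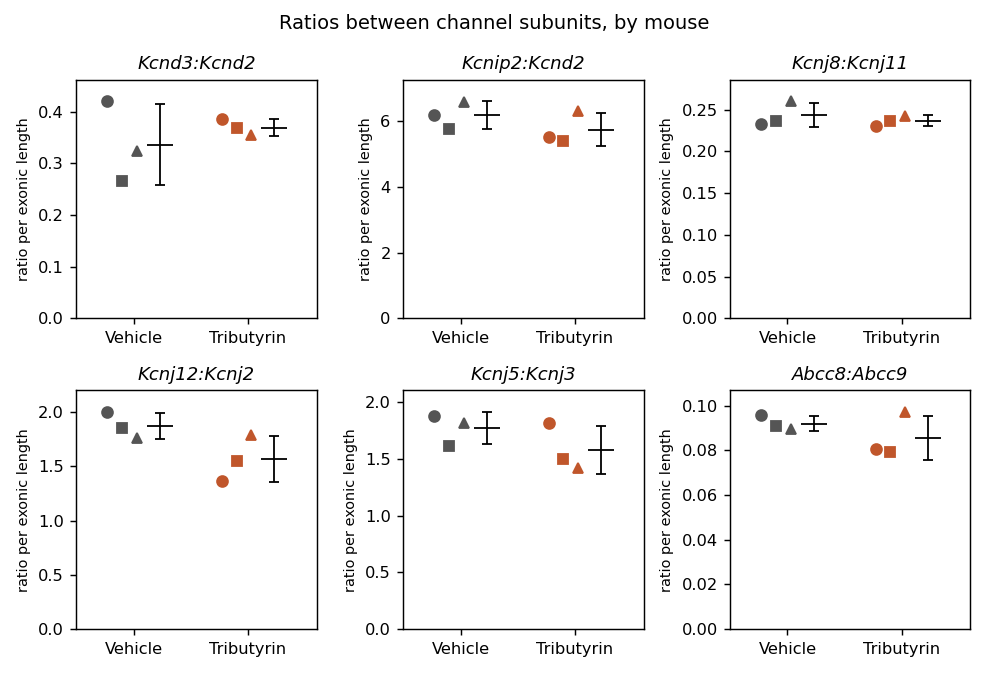
Ratios of levels per exonic length between pairs of channel subunits (axis from 0), by mouse (circle, square and triangle are mice 1, 2 and 3 of each group), with the mean and SD in black. All 6 ratios overlap between WD + Vehicle and WD + Tributyrin, and *Kcnj12* to *Kcnj2* has 1 Tributyrin mouse within the vehicle range.

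Of the pores of the slowly inactivating currents, *Kcna5* (Kv1.5) was compared by mouse. *Kcna5* was at 38.5, 33.7 and 28.2 CPM with vehicle and 30.8, 38.4 and 35 CPM with Tributyrin (log2 fold change 0.05, interval −0.22 to 0.32). Its groups overlapped, as did those of *Kcna2*, with means of 3.56 and 4.03 CPM. The silent subunits join other Kv pores. *Kcng2* (Kv6.2) was at 208, 190 and 201 CPM with vehicle and 215, 192 and 193 CPM with Tributyrin, a log2 fold change of 0.0022. *Kcnv2* (Kv8.2) was at 22.8, 18.9 and 16.9 CPM with vehicle and 23.2, 26.8 and 21.6 CPM with Tributyrin, 22.1% higher (log2 fold change 0.29, interval 0.01 to 0.56, edgeR, unadjusted p = 0.0421, adjusted p = 0.999). Vehicle mouse 1 lay within the Tributyrin range, and the unadjusted p was under 0.05 in 10 of 15 alternatives. Leaving out any of 3 mice (vehicle 2, vehicle 3 or Tributyrin 2) took it above 0.05. So did library size alone (0.115 in edgeR) and a mean CPM of at least 5 (0.0502 in edgeR).

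*Kcnc1* (Kv3.1), a fast channel best known from neurons, had the largest difference below 0. It was at 1.07, 2.35 and 1.04 CPM with vehicle and 0.285, 1.05 and 0.565 CPM with Tributyrin, and Tributyrin mouse 2 lay between vehicle mice 1 and 3. Its log2 fold change was −1.26 with an interval of −2.32 to −0.21 (edgeR, unadjusted p = 0.0236, adjusted p = 0.999). The size depended on single mice, with a log2 fold change of −0.73 without vehicle mouse 2 and −1.86 without Tributyrin mouse 2. The unadjusted p in edgeR was 0.173 without vehicle mouse 2, 0.0758 without Tributyrin mouse 1 and 0.0597 without Tributyrin mouse 3. Without the filter on low counts, *Kcnc1* passed an FDR of 10% (adjusted p = 0.0331 in edgeR), the only *Kcn* gene to pass in any alternative.

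The delayed rectifiers join *Kcnh2* or *Kcnq1* pores to *Kcne* subunits. *Kcnh2* was at 134, 111 and 125 CPM with vehicle and 135, 110 and 132 CPM with Tributyrin (log2 fold change 0.02), and *Kcnq1* at 53.9, 48.1 and 51.7 CPM and 53.7, 44.9 and 52.8 CPM (−0.02). The groups of both overlapped, and *Kcnq1* shares 121 exonic bases with the opposite-strand *Kcnq1ot1*, which had 40 to 67 counts. Their subunit *Kcne1* varied far more between mice than between groups. It was at 3.04, 7.65 and 9.46 CPM with vehicle and at 2.67, 6.38 and 7.35 CPM with Tributyrin, with 1 mouse in each group at less than 0.5 of the level of the others. The highest mouse was 3.54 times the lowest, where the same ratio was 1.2 for *Kcnq1*. Its log2 fold change of −0.30 had an interval of −1.2 to 0.59. *Kcne4* had means of 2.66 and 2.24 CPM.

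**Figure D5:**
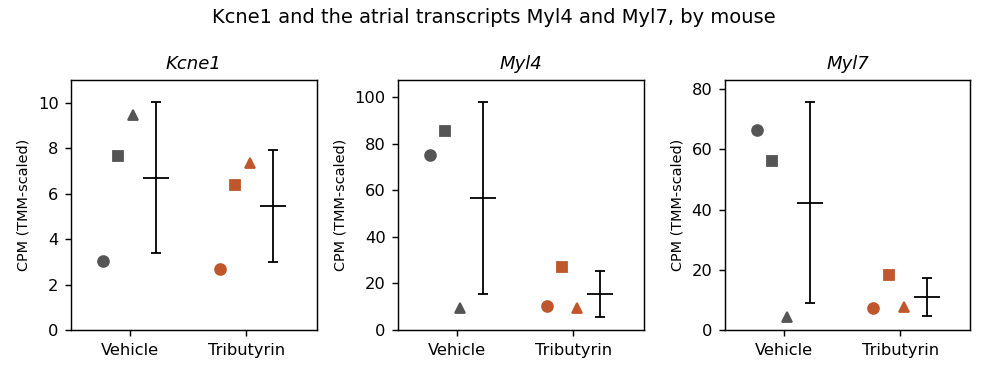
CPM (TMM-scaled, axis from 0) of *Kcne1* and of the atrial transcripts *Myl4* and *Myl7*, by mouse (circle, square and triangle are mice 1, 2 and 3 of each group), with the mean and SD in black. *Kcne1* is low in mouse 1 of both groups, whereas *Myl4* and *Myl7* are high in vehicle mice 1 and 2, so the order of the mice differs. The atrial marker *Nppa*, not drawn, was highest in mouse 3 of both groups, as *Kcne1* was.

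Genes that assemble with these channels, that regulate their transcription, or that carry other cation currents of the same cells gave 28 tested genes of 31. Of these 28, 15 were higher and 13 lower with Tributyrin, and none passed an FDR of 10% in edgeR. At an unadjusted p under 0.05, 2 were higher (*Lrrc38* above and *Irx5*), where 1.97% of all genes tested were, and none was lower. Without the filter on low counts *Lrrc38* passed (adjusted p = 0.00373 in edgeR). *Irx5*, a transcription factor that represses *Kcnd2* in the ventricular wall, was at 11.3, 7.54 and 9.27 CPM with vehicle and 14, 11 and 11.4 CPM with Tributyrin, with 1 vehicle mouse above the lowest Tributyrin mouse (log2 fold change 0.38, edgeR, unadjusted p = 0.0346). *Klf15*, the activator of *Kcnip2* in the daily cycle, was at 86, 94.7 and 83.4 CPM against 65.4, 85.7 and 108 CPM and spread most with Tributyrin (log2 fold change −0.03). The pacemaker channel *Hcn4* had a log2 fold change of −0.12, and its groups overlapped.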

How the data were processed

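Heart ventricle RNA of 3 WD + Tributyrin and 3 WD + Vehicle mice was measured by stranded mRNA-seq with single-end 50 bp reads, and each library was assigned to its group by its sample title. The authors deposited raw counts of reads per Ensembl gene, without normalization. Per their methods and processing notes, adapters were trimmed with cutadapt, reads were aligned to mm10 with STAR and counted with HTSeq 0.6.1p1. Which annotation release they counted on, and whether strand was used, is not given in the sources used here, so reads of genes that overlap on opposite strands may not be told apart. Of the 49 *Kcn* genes tested, 8 share exonic bases with a gene that has 10 or more counts. The authors' comparison used DESeq2 1.14.1.

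From these counts, *Kcn* genes were found in GENCODE M21 (GRCm38) by Ensembl identifier, with 94 of 94 matched. The members and the gene lists were chosen with earlier results of these data known. Groups were compared across all genes with edgeR 4.0.16 in R 4.3.3 (TMM scaling, filterByExpr at its minimum count, 10, and minimum total, 15, quasi-likelihood test, no covariate) and Benjamini-Hochberg adjustment, at an FDR of 10%. The total of 20369746 to 32734485 counts per library makes 1 count worth 0.0294 to 0.0473 CPM. CPM used TMM-scaled library sizes, and levels between genes used exonic length. Errors are SD over mice. The edgeR p-values set the difference between groups against the spread between 3 mice per group. For each gene, edgeR estimated that spread partly from the other genes tested. For ratios of subunits, an exact permutation test over mice (two-sided) was used.

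Genes were named by rule: tested members of the cardiac current lists, the 10 with the lowest p, the 10 with the highest level, those whose groups do not overlap and the highest of those left out. Others were named after their values were seen, for a family comparison. Alternatives were other scalings (RLE, library size alone), no filter or a mean CPM of at least 5, DESeq2 1.42.0, limma-voom (limma 3.58.1), a robust prior, a block for the replicate number, and leaving each mouse out. Leaving out both vehicle mice with high atrial transcripts was added after seeing the data. The edgeR and DESeq2 steps were tested on simulated data. Figures were drawn with matplotlib 3.10.9 in Python 3.11.15. Some single genes, and some of the sequences, were left out of the text and figures.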

Additional observations from a re-analysis of the deposited data

How the results depend on the processing

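With 3 mice per group, genes of few counts have wide intervals, and a p that misses the threshold does not show that the groups were alike. *Kcn* genes past an FDR of 10% numbered 0 under every alternative except without the filter on low counts, where *Kcnc1* made it 1. Of all genes, 0 passed in the comparison reported, 167 without the filter, 11 in DESeq2, and 2 with the replicate number as a block. In that block the *Kcn* count remained 0 and 7 of 49 (14.3%) had an unadjusted p under 0.05, beside 5.17% of all genes. Mice of the same number did not deviate together in every pair (0.21, 0.037 and 0.015 as correlations of their deviations from the group means), and the mice share a number only. With 1 mouse left out at a time, 0 to 3 genes passed 10%. The 6 *Kcn* genes at an unadjusted p under 0.05 became 3 with a mean CPM of at least 5. That filter leaves out genes as low as *Kcnk1* and *Kcnc1*, and *Kcnv2*, still tested, had an unadjusted p of 0.0502 in edgeR. With 1 mouse left out the count was 2 to 7 (4% to 13.5%, beside 2.68% to 9.55% of all genes). The count of *Kcn* genes without overlap went from 3 to 5 with library size alone (10.2%, beside 11.5% of all genes), and *Kcnj2* was then no longer among them. With 1 mouse left out the count was 5 to 14 (9.43% to 26.4% of 50 to 53 tested, beside 15.4% to 27.3% of all genes), where fewer mice make separation easier. The share was above that of all genes without vehicle mouse 1 (26.4% beside 19.6%) and below it without each of the other mice. The median log2 fold change of the *Kcn* genes was −0.0909 with library size alone, beside −0.0736 for all genes.

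*Kcnk1*, *Kcnj2*, *Kcnj3*, *Kcnv2*, *Kcnn2* and *Kcnc1* kept their direction in every alternative that could test them. Genes near 0 changed sign. So did *Kcna4*, *Kcne1* and *Kcnj4* with 1 mouse left out, although their log2 fold changes were −0.24, −0.30 and −0.26. With library size alone the log2 fold changes were −0.0194 for *Kcna5*, −0.0692 for *Kcng2*, −0.0481 for *Kcnh2*, −0.0245 for *Kcnj11*, −0.0713 for *Kcnj12*, −0.0132 for *Kcnj5*, −0.0657 for *Kcnj8*, −0.00791 for *Kcnk2*, −0.0625 for *Kcnk3* and −0.0476 for *Abcc9*. With a mean CPM of at least 5 they were −0.00205 for *Kcng2* and −0.00196 for *Kcnj12*. *Kcnj12* was at −0.00145 in limma-voom and at −0.000925 with the block. Without both vehicle mice with high atrial transcripts they were 0.0452 for *Kcnd2*, −0.00617 for *Kcng2*, −0.0177 for *Kcnj8*, −0.0452 for *Abcc9* and 0.0491 for *Klf15*.

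With 1 mouse left out, the log2 fold change ran from −0.565 to 0.0561 for *Kcna4*, from −0.0559 to 0.167 for *Kcna5*, from −0.171 to 0.0352 for *Kcnd2*, from −0.00688 to 0.248 for *Kcnd3*, from −0.643 to 0.0387 for *Kcne1*, from −0.0469 to 0.0399 for *Kcng2*, and from −0.0435 to 0.111 for *Kcnh2*. It ran from −0.0275 to 0.335 for *Kcnip3*, from −0.0557 to 0.0603 for *Kcnj12*, from −0.113 to 0.555 for *Kcnj14*, from −0.514 to 0.0444 for *Kcnj4*, from −0.124 to 0.168 for *Kcnj5*, and from −0.0221 to 0.0412 for *Kcnj8*. It ran from −0.0839 to 0.364 for *Kcnk2*, from −0.0175 to 0.0612 for *Kcnk3*, from −0.0663 to 0.0566 for *Kcnq1*, from −0.0834 to 0.119 for *Abcc9*, and from −0.219 to 0.145 for *Klf15*. The log2 ratio of *Kcnj8* to *Kcnj11* ran from −0.0729 to 0.00755. The cause of these changes of sign was not tested.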

Other observations

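Levels of low *Kcn* genes outside the cardiac currents were compared by mouse as a description. *Kcnh7* had means of 1.09 ± 0.329 CPM with vehicle and 1.25 ± 0.563 CPM with Tributyrin (SD, n = 3), and it shares 696 exonic bases with *Gca* on the opposite strand, which had 323 to 547 counts. *Kcnk13* had 0.787 ± 0.296 and 0.695 ± 0.369 CPM. *Kcnj15* had 1.63 ± 0.0968 and 1.2 ± 0.55 CPM, with Tributyrin mouse 2 above all vehicle mice. *Kcnk3* shares 229 exonic bases with the opposite-strand Gm9899, which had 699 to 1082 counts per library, and *Kcng2* shares 272 with D330025C20Rik, which had 182 to 301. How the reads of such pairs were divided was not tested.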
